A study of Rattus norvegicus with 10 samples.

Results

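The annexins, S100 proteins and galectins are 3 families of small proteins that bind calcium or sugars, and their genes were taken from the all-gene read table by name: every symbol made of Anxa and a number, every symbol that begins with S100 and a letter, and every symbol that begins with Lgals and a digit. The rule found 39 of 22081 genes, of which 12 were annexins, 17 carried an S100 name and 10 a galectin name. Lgals3bp and S100pbp encode proteins that bind a galectin or an S100 protein and do not belong to the families themselves, which leaves 37 genes of the families proper.

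As background, annexins are cytoplasmic proteins that attach to negatively charged membrane lipids when calcium is present, and they act in membrane repair, vesicle traffic and the resolution of inflammation. S100 proteins are small calcium-binding proteins that change the activity of other proteins inside the cell, and several of them are released and signal to inflammatory cells. Galectins bind galactose-containing sugars on glycoproteins, and galectin-3 is an abundant product of activated macrophages.

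RNA was sequenced from 5 rupture-prone intracranial aneurysm (IA) lesions, called lesions in the text and aneurysm in the plots, and from 5 samples of the remaining circle of Willis, which are called control below, and both groups carry sample numbers 4 to 8. The labels give the genotype as WT, and the study's methods describe female Sprague-Dawley rats that were 10 weeks old at surgery and underwent ovariectomy on both sides, ligation of the left carotid, right external carotid, right pterygopalatine and left renal arteries, and a high-salt diet containing 3-aminopropionitrile, an inhibitor of the collagen cross-linking enzyme lysyl oxidase, with harvest on day 63. The methods also state that lesion and remaining circle of Willis were taken from the same animal, so that the control tissue carried the same surgery and diet and did not come from untreated rats, and the lesions lay on the anterior or posterior communicating artery. No source used here says which lesion and which control share an animal (whether a shared number marks it), or that the numbers within a group stand for different animals. The groups were therefore compared unpaired, and the p-values below cover only the spread between these samples.

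The libraries held 3017269 to 7352626 gene reads, that is, reads in exons and introns of a gene. The lesion library numbered 8 stood apart, since 743 genes reached 10 exon reads in it against 2664 to 7590 in the other libraries, and only 2 of the 39 genes did so. Its 4513515 gene reads lay within the range of the others, and 9 of the 39 genes reached 10 gene reads. Its scaling factor from the trimmed mean of M values (TMM) was 0.282, against 0.759 to 1.57 elsewhere. This factor raises its values in CPM (gene reads scaled to a common TMM-scaled library total, the unit used below). With library size alone, Anxa1 in lesion 8 had 57.8 CPM in place of 206. Anxa5 there had 183 in place of 652, and Lgals3 21.9 in place of 78.3. Against marker lists, the summed CPM of 14 macrophage genes was 142 to 7199 in the lesions and 44.5 to 164 in the controls, and that of 5 fibroblast genes was 289 to 19984 and 54.8 to 387. Smooth muscle markers of the arterial wall summed to 289 to 692 CPM in the lesions and 372 to 1024 in the controls, with 4 to 6 of the 6 genes at 10 reads or more in every library except lesion 8. There Myh11 had 482 of the 487 reads and Acta2, Tagln and Cnn1 had 0, with 4 and 1 reads of Des and Smtn. In addition, 5 astrocyte genes summed to 3.96 to 181 in the lesions and 404 to 766 in the controls. The sum of 5 endothelium genes was 3.03 to 65.1 and 74.7 to 146. That of 8 neuron genes was 12.6 to 161 and 165 to 1010. In bulk samples, fewer cells of a type and less RNA per cell cannot be told apart.

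Of the 39 genes, 31 had at least 1 gene read in the series. Anxa8, Lgals5, Lgals7, S100a5, S100a7a, S100a9, S100vp and S100z had 0 gene reads in all 10 libraries, which allows up to 3 reads in a library and covers counting error only. This was 8 of 39 genes, where 24.4% of all genes in the table had 0 reads. Anxa10, Lgals12 and S100a3 had 2, 1 and 7 reads in total. After the low-count filter 19 genes were tested and 20 were left out.

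**Figure D1:**
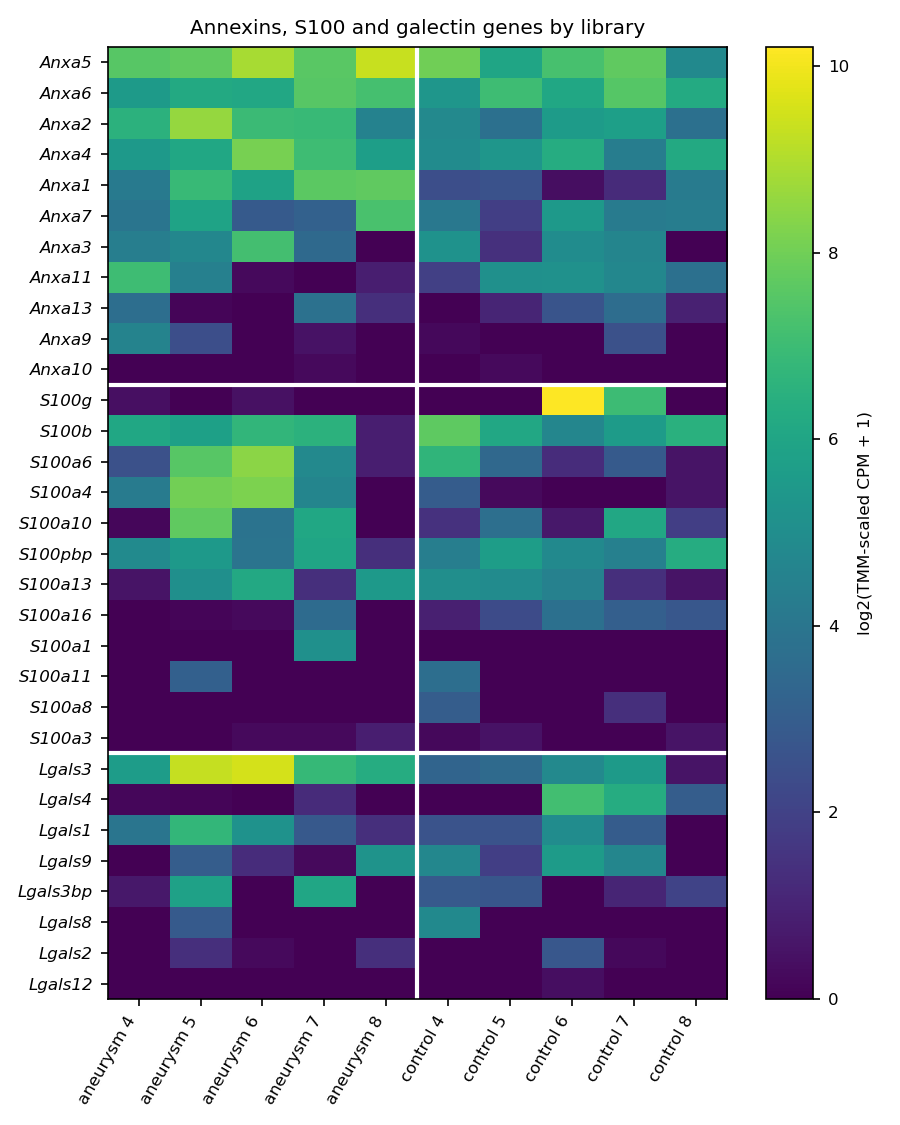
Colour gives log2 of TMM-scaled CPM plus 1 for each of the 31 genes with reads (vertical axis, grouped as annexins, S100 and galectin names) in each library (horizontal axis, 5 lesions left and 5 controls right of the white line). Lgals3 is brightest in lesions 5 and 6 (624 and 739 CPM), and S100g is bright only in controls 6 and 7 (1178 and 126 CPM).

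No gene of the 3 families passed an adjusted p of 0.05 in either direction in edgeR's quasi-likelihood test with Benjamini-Hochberg adjustment over all 7615 genes, where 12 genes, or 0.158% of those tested, did. At an unadjusted p under 0.05, 4 of the 19 genes (Lgals3, S100a4, Anxa1 and Anxa2) were on the side of a higher level in the lesions and 0 on the side of a lower one, against 3.3% of all tested genes on the higher side. DESeq2 called 3 of the genes higher (Lgals3, S100a4 and Anxa1), where it called 1.21% of all genes with an adjusted p higher, and it gave no adjusted p for 1 of the 19. Without the low-count filter edgeR called the same 3 genes higher and Lgals4 and S100g lower, where it called 0.778% of all genes in either direction. The families are therefore described below by their values, and no change is claimed for a gene that passed in an alternative fit only.

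The fitted log2 fold change (lesion over control) was positive for 15 of the 19 tested genes and negative for 4, with a median of 1.26. Over all tested genes 54.2% were positive and the median was 0.13. By family the median was 1.25 over 8 annexins, of which all 8 were positive with TMM scaling and Anxa6 turned negative under scaling by library size alone (-0.062 in place of 0.069), 0.82 over 7 S100 names with 4 positive and 3 negative, and 2.38 over 4 galectin names with 3 positive. DESeq2's size factors moved the median of all genes by 0.27 to 0.40, and the median of the 19 genes to 1.83, so that the distance between both medians was 1.43 in place of 1.13.

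**Figure D2:**
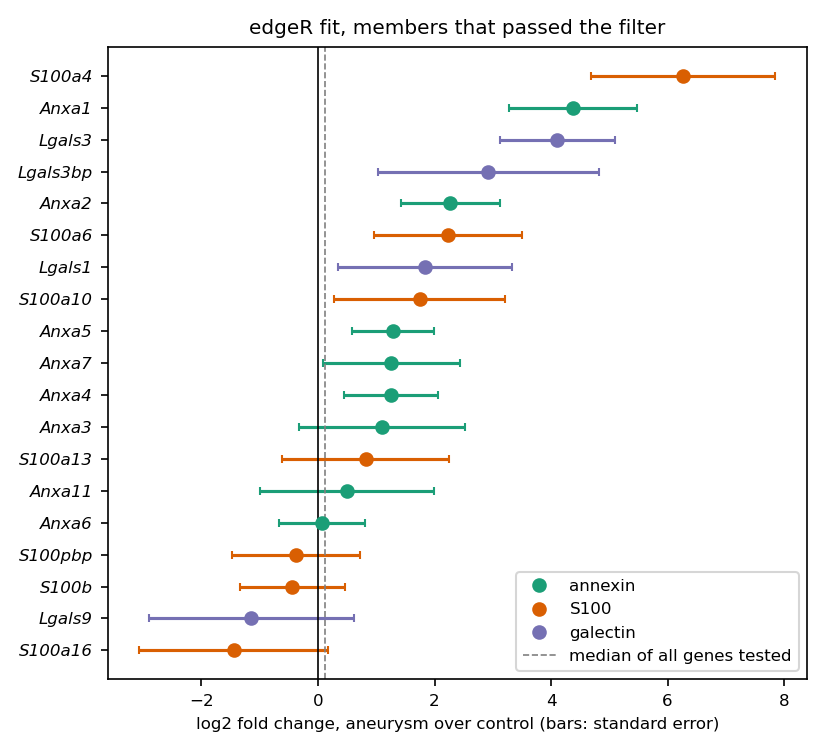
Points give the log2 fold change of lesion over control from edgeR (horizontal axis, bars 1 standard error) for the 19 tested genes (vertical axis), coloured by family, with the median of all tested genes as a dashed line at 0.13. S100a4, Anxa1 and Lgals3 lie farthest to the right (6.27, 4.38 and 4.11) and S100a16 farthest to the left (-1.45).

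Among galectins, Lgals3 encodes galectin-3, which macrophages secrete and which binds sugars on integrins and matrix proteins (chr15:24141650-24165537, Rnor6). In lesions 4 to 8 it had 48.4, 624, 739, 113 and 78.3 CPM. In controls 4 to 8 it had 8.86, 10.6, 26.9, 46.1 and 0.445 CPM. Every lesion lay above every control, as was so for 0.499% of all tested genes, and lesions 5 and 6 lay far above the rest. The mean was 321 ± 333 CPM in the lesions and 18.6 ± 18.1 CPM in the controls (SD, n = 5 each), with a two-sided exact permutation p of 0.00794, the smallest that 5 against 5 samples can give. The log2 fold change was 4.11 (standard error 0.99, adjusted p = 0.110 by edgeR's quasi-likelihood test), and it passed the threshold when lesion 8 was left out (4.35, adjusted p = 0.0378), a fit that called 0.374% of all genes. No other fit that left out a single library passed for Lgals3 (adjusted p by edgeR 0.0600 to 0.318, highest without lesion 6).

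The separation of Lgals3 depended on lesion 8, where 1 of its 99 reads lay in exons. Counted in exon reads, 4 of 5 lesions lay above every control (exact permutation p = 0.0397 on means and 0.0952 on ranks), and scaled by library size alone also 4 of 5 did (exact p = 0.0238). The macrophage marker sum was highest in the same lesions, 5816 CPM in lesion 5 and 7199 in lesion 6, and the fibroblast sum likewise with 19984 and 14410 CPM, and their part in the level of Lgals3 was not tested. In controls 6 and 7, whose reads from intestinal genes are given further down, Lgals3 was the highest of the controls, and without these libraries its log2 fold change was 5.57 (adjusted p = 0.126).

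The exact test was run for 28 genes of the families, of which 4 had p under 0.05 on the means and 2 on the ranks, with no adjustment over the list. It was not run for genes outside the families, so these counts have no share over all genes beside them and are a description. S100a4 (chr2:189997128-189999604) encodes a protein that binds non-muscle myosin and is known from motile fibroblasts and macrophages. It had 17.8, 263, 295, 24.2 and 0 CPM in lesions 4 to 8. In controls 4 to 8 it had 6.78, 0.212, 0, 0 and 0.445 CPM. Lesions 4 to 7 lay above every control and lesion 8 had no read, while 39 of the 41 control reads came from control 4. The log2 fold change was 6.27 (standard error 1.58, adjusted p = 0.143 by edgeR), and the exact permutation p was 0.0476 on means and 0.0952 on ranks. Without lesion 8 the call passed (6.58, adjusted p = 0.0302), and without control 4, where 0.0966% of all genes were called, it did so as well (9.52, adjusted p = 0.0308). The other fits that left out a single library did not pass (adjusted p by edgeR 0.0772 to 0.365). Among these it was 0.236 without lesion 5 and 0.364 without lesion 6.

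Anxa1 (chr1:237893965-237910012) encodes annexin A1, a glucocorticoid-induced protein that limits the entry of neutrophils. It had 16.8, 116, 57.9, 198 and 206 CPM in lesions 4 to 8. In controls 4 to 8 it had 4.52, 4.86, 0.289, 1.41 and 17.8 CPM. Lesions 5 to 8 lay above every control and lesion 4 lay just under control 8. The log2 fold change was 4.38 (standard error 1.10, adjusted p = 0.143 by edgeR) and the exact permutation p was 0.0159 on means and on ranks. In lesion 8 all 261 Anxa1 reads lay in introns, so that in exon reads it had 0 there and 4 of 5 lesions exceeded every control (exact permutation p = 0.0476 on means and 0.0952 on ranks). Scaled by library size alone, all 5 lesions lay above every control (exact permutation p = 0.00794).

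**Figure D3:**
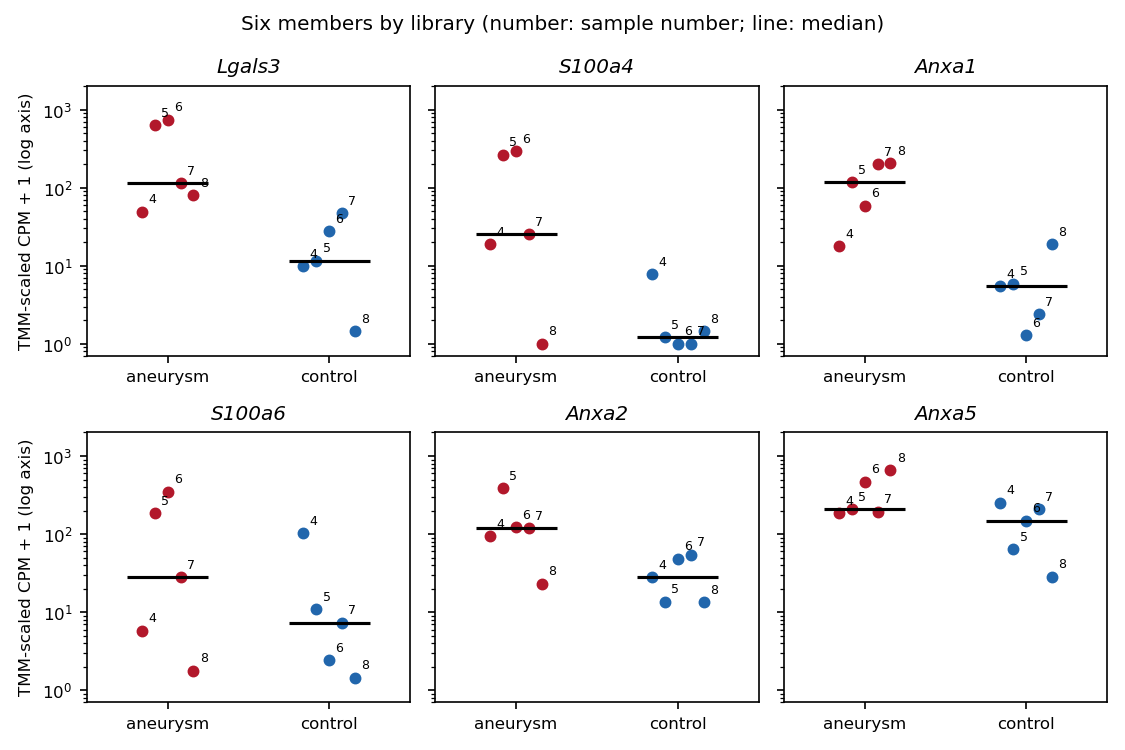
Each point is a library with its sample number, the vertical axis (log scale) gives TMM-scaled CPM plus 1, and the line is the group median, for Lgals3, S100a4, Anxa1, S100a6, Anxa2 and Anxa5. Lesions and controls do not overlap for Lgals3 (48.4 CPM or more against 46.1 or less) and overlap for the other 5 genes.

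Promoter sequences of 300 bases (250 before and 50 after the start of the gene, RefSeq, build GRCr8) were matched for 29 of the 39 genes. They are shown for S100a4 and Anxa1, which were among the 4 genes with an unadjusted p under 0.05, for S100a6, a gene close to S100a4 that was highest in the same lesions, and for Lgals4, which had most of its reads in 2 control libraries. Capitals mark matches on either strand to TATAAA (the TATA box), to GGGCGG (the GC box) or to TTTATNG (a core of the site of the intestinal CDX factors).
S100a4: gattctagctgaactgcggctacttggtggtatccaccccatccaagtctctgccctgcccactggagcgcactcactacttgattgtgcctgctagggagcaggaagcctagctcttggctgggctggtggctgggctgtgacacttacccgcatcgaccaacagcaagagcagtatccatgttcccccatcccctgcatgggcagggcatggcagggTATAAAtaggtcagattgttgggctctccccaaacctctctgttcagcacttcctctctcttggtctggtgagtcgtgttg
S100a6: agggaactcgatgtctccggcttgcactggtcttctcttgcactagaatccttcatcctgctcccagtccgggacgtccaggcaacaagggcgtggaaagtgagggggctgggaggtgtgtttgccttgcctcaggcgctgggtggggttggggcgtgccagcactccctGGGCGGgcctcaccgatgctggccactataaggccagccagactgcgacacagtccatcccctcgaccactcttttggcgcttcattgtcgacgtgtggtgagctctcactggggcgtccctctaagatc
Anxa1: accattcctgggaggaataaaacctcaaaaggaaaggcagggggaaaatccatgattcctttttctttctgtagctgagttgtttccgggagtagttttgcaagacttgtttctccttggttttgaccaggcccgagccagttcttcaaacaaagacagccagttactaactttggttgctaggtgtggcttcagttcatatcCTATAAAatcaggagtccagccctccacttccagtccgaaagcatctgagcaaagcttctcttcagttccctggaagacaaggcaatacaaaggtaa
Lgals4: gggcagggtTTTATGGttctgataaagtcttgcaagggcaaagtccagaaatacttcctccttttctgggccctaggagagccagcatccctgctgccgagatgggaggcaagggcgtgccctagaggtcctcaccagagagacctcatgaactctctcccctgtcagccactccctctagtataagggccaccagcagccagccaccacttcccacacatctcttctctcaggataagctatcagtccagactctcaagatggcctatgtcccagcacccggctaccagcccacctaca

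The sequences lie at chr2:178388279-178388578 (S100a4, plus strand), chr2:178398287-178398586 (S100a6, plus strand), chr1:227303683-227303982 (Anxa1, minus strand) and chr1:93252035-93252334 (Lgals4, plus strand). TATAAA stood 31 bases before the start of S100a4 and 46 bases before that of Anxa1, where it overlaps the match to TTTATNG, and GGGCGG stood 80 bases before that of S100a6. TATAAA was found in 6 of the 29 promoters against 14.2% of all 33469 promoters of this length, GGGCGG in 14 against 33.1%, and TTTATNG in 4 (Anxa1, Lgals4, S100a7a and S100a9) against 11.3%. The AP-1 letters TGANTCA were found in 3 (Anxa10, Anxa2 and Lgals9) against 7.33%. A match is a description of letters and not a sign of a bound factor.

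Anxa2 encodes annexin A2, which with the S100a10 protein forms a complex that binds plasminogen at the cell surface. It had 93.7, 389, 122, 117 and 22.2 CPM in lesions 4 to 8. In controls 4 to 8 it had 27.1, 12.7, 47.7, 53.8 and 12.5 CPM. Lesions 4 to 7 lay above every control and lesion 8 within their range. The log2 fold change was 2.27 (standard error 0.85, adjusted p = 0.553 by edgeR), with an exact permutation p of 0.0317 on means and 0.0556 on ranks. Counted in exon reads, only 2 lesions lay above every control (exact permutation p = 0.119 on means and 0.151 on ranks). The log2 fold change on exon reads was 1.73 (standard error 1.29). Scaled by library size alone, 4 lesions lay above every control (exact permutation p = 0.0476 on means and 0.151 on ranks).

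Its partner S100a10 had 0.117, 208, 13.9, 66.0 and 0 CPM in the lesions. The controls had 1.74, 12.1, 0.578, 68.6 and 2.67 CPM. Lesion 5 was the highest, control 7 exceeded 4 lesions, and the log2 fold change was 1.75 (standard error 1.47, adjusted p = 0.999 by edgeR). It was 0.25 without lesion 5 and 3.75 without control 7 (adjusted p = 0.883 by edgeR). Anxa2 and S100a10 thus were both highest in lesion 5, which is also among the libraries with the most fibroblast and macrophage marker reads, and whether these move together beyond that was not tested.

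Anxa5 encodes the annexin that binds phosphatidylserine, and it had the most gene reads of the annexins (11691 over the series). It had 184, 208, 469, 192 and 652 CPM in lesions 4 to 8. In the controls it had 252.4, 62.8, 148, 206 and 27.6 CPM. The groups overlapped, since lesions 4, 5 and 7 lay within the control range of 27.6 to 252.4 CPM, and the log2 fold change was 1.29 (standard error 0.70, adjusted p = 0.895 by edgeR). Of its reads 40.4% lay in exons, beside 50.2% to 67.2% of all gene reads in a library. In exon reads lesion 8 had 11.1 CPM of Anxa5 in place of 652.

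The other annexins tested, Anxa3, Anxa4, Anxa6, Anxa7 and Anxa11, had log2 fold changes of 0.069 to 1.26, each with an adjusted p of 0.99 or more by edgeR, and their groups overlapped. Anxa6, which is unusual among annexins for its long chain of repeats, had a mean of 103 ± 58.5 CPM in lesions and 98.5 ± 57.0 CPM in controls (SD, n = 5 each). Anxa11 was driven by lesion 4, with 132 CPM there against 20.8 or less in the other lesions and 2.78 to 34.4 in the controls, and its log2 fold change went from 0.50 to -1.98 without lesion 4. Anxa3 likewise reached 140 CPM in lesion 6 against 0 to 25.7 in the other lesions, and went from 1.10 to -0.40 without it. Anxa4 went from 1.25 to 0.61 without lesion 6, and Anxa7 from 1.26 to 0.14 without lesion 8. Anxa13, an annexin of intestine and kidney epithelium, and Anxa9 had 259 and 272 reads and were left out by the filter, and Anxa9 had none of its reads in exons.

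The annexin sum was 586 to 1233 CPM in the lesions (mean 955 ± 255) and 238 to 546 CPM in the controls (mean 388 ± 125; SD, n = 5 each), without overlap. Anxa5 led the sum in lesions 4, 6 and 8 and Anxa2 in lesion 5, while Anxa1 led in lesion 7. The separation was not kept with library-size scaling, where lesion 8 had 345 CPM against 551 in control 4, nor in exon reads, where the lesions had 31.6 to 794 and the controls 27.2 to 190 CPM.

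Most S100 genes lie in a cluster on chromosome 2, where 11 of the genes span 0.731 Mb (chr2:189900666-190631821, Rnor6), and 4 of these 11 had 0 reads in every library. S100a6 encodes a protein that binds calcyclin-binding protein and annexins and lies near S100a4 in the cluster. It had 4.81, 185, 347, 26.8 and 0.791 CPM in lesions 4 to 8. In the controls it had 102, 9.94, 1.44, 6.35 and 0.445 CPM. Lesions 5 and 6 were highest and control 4 came after them, so that the groups overlapped, and the log2 fold change was 2.23 (standard error 1.27, adjusted p = 0.941 by edgeR). It was 4.63 without control 4 (adjusted p = 0.369 by edgeR) and 1.16 without lesion 6. S100a4 and S100a6 were both highest in lesions 5 and 6.

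S100b, a protein of astrocytes and Schwann cells, had 65.9, 54.5, 104, 93.7 and 0.791 CPM in the lesions. The controls had 203, 68.3, 24.8, 47.6 and 89.0 CPM. The groups overlapped, with control 4 the highest and lesion 8, with 1 read, the lowest, and the log2 fold change was -0.44 (standard error 0.90, adjusted p = 0.999 by edgeR). The astrocyte marker sum did not overlap between the groups (at most 181 CPM in lesions and at least 404 in controls). The sum of 6 oligodendrocyte and Schwann cell genes did overlap, with a median of 100.6 CPM in lesions and 109.5 in controls. Its highest value was 501 CPM in lesions and 177 in controls. The part of astrocyte or Schwann cell content in the level of S100b was not tested. In exon reads per kilobase S100b had a mean of 16.8 CPM in lesions and 45.0 in controls. S100a13, a protein released with fibroblast growth factor 1, had a log2 fold change of 0.82 on gene reads and -1.15 on exon reads, so that its direction depended on the reads counted.

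S100a8 and S100a9 encode calprotectin, the most abundant cytosolic protein of neutrophils. S100a9 had 0 reads in every library. S100a8 had 0 reads in each lesion and 41 and 9 reads in controls 4 and 7, at 7.13 and 1.59 CPM, and none in the other controls. A list of 10 other neutrophil genes summed to 1.48 to 8.56 CPM in the lesions and 0 to 20.1 CPM in the controls, and Mpo, Elane, Camp and Retnlg were at 0 in all libraries. Csf3r had 73 reads in lesion 4 and 0 to 10 in the other lesions, against 0 to 4 in the controls. Mmp8 had 15 and 7 reads in lesions 5 and 7 and 2 in control 8. Ngp had 113 reads, all in control 7, which had the control maximum. Ltf, Cxcr2 and Mmp9 had at most 2 reads in a library. With S100a8 and S100a9 at 0 reads in each lesion, calprotectin RNA was not detectable there at this depth.

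**Figure D4:**
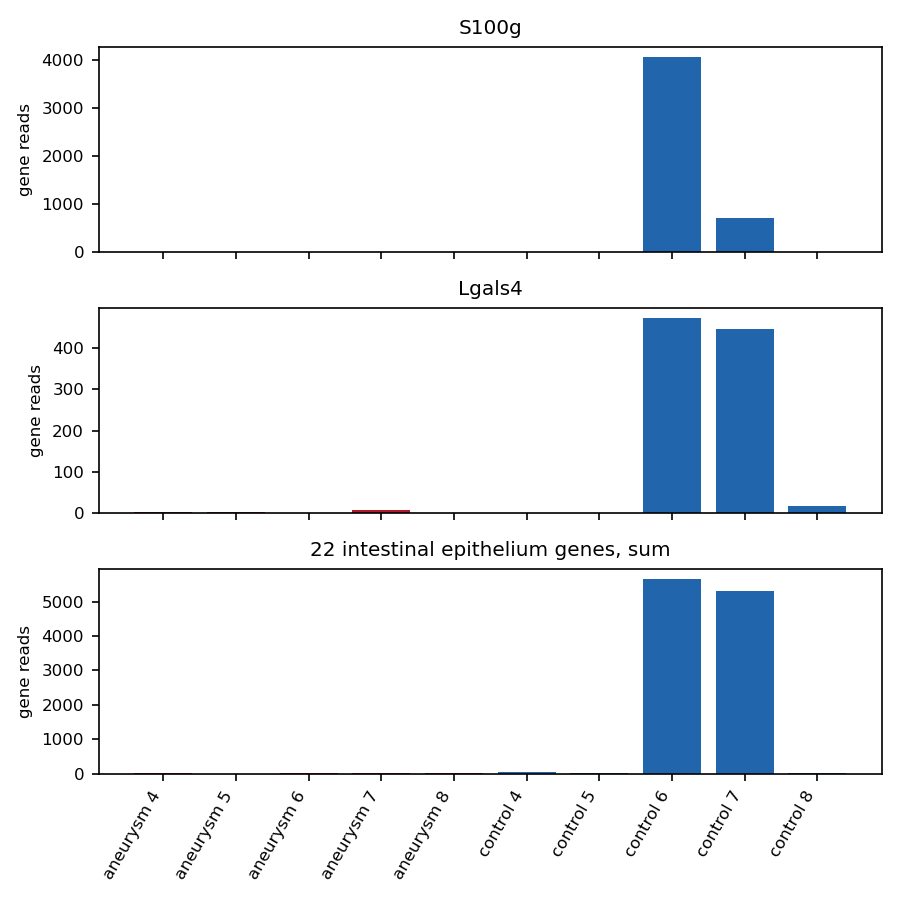
Bars give gene reads in each library for S100g (top), Lgals4 (middle) and the sum of 22 intestinal epithelium genes (bottom), from which Anpep was left out. Controls 6 and 7 hold 4078 and 715 reads of S100g, 474 and 446 of Lgals4 and 5665 and 5308 of the sum, and the other 8 libraries at most 3, 16 and 59.

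The largest single value of all 39 genes, 1178 CPM, was S100g in control 6. S100g encodes calbindin-D9k, a calcium carrier of intestinal enterocytes, and it lies on chromosome X (chrX:33443185-33445709). It had 4078 reads in control 6 and 715 in control 7, and 5 reads in the other 8 libraries together, so that 99.9% of its reads came from these 2 libraries. Lgals4, galectin-4, an intestinal galectin of the brush border, had 474 and 446 reads there and 25 in the others (97.4%).

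A list of 24 intestinal epithelium genes was drawn up after these values were seen, of which 23 were in the table. In CPM, 18 of the 23 were higher in both controls 6 and 7 than in each of the other 8 libraries, and Fabp2 had 0 reads throughout. The list had 5742 reads in control 6 and 5496 in control 7, against 35 to 1734 in each other library, the most in lesion 5. Without Anpep, which had 3348 reads in the lesions, the list had 5665 reads in control 6 and 5308 in control 7, against 8 to 59 in each other library. The origin of these reads was not tested. S100g made up 93.0% of the S100 sum in control 6 and 45.0% in control 7, and Lgals4 55.5% and 49.9% of the galectin sum. These genes thus led the sums in controls 6 and 7, where the sums include S100pbp and Lgals3bp. Both genes failed the low-count filter, and without it both were called lower in the lesions, log2 fold changes -10.37 (adjusted p = 5.03e-11) and -6.92 (adjusted p = 0.0380 by edgeR), calls which rest on controls 6 and 7. With controls 6 and 7 left out, 0 of the 19 genes then tested passed by edgeR, where 0.0426% of all genes did, and 4 were on the higher side at an unadjusted p under 0.05 (Lgals3, S100a4, Anxa1 and Anxa2), against 3.79% of all genes, while S100a4 had a log2 fold change of 5.55 (adjusted p = 0.340) and Anxa1 one of 3.72 (adjusted p = 0.521).

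Lgals1, galectin-1, the galectin of fibroblasts and smooth muscle, had 14.5, 108, 36.2, 6.26 and 1.58 CPM in the lesions. It had 5.04, 5.08, 29.7, 6.88 and 0 CPM in the controls. The groups overlapped, with lesion 5 the highest, and the log2 fold change was 1.84 (adjusted p = 0.999 by edgeR), 0.68 without lesion 5 and 2.96 without control 6. Lgals3bp, which encodes a secreted partner of galectin-3, had 56.8 and 65.6 CPM in lesions 5 and 7 and 0.586 or less in the other lesions, against 0 to 6.26 CPM in the controls (fitted log2 difference 2.92, standard error 1.89). Lgals9, a galectin that binds Havcr2, had a fitted difference of -1.14 on the log2 scale (standard error 1.76, adjusted p = 0.999 by edgeR; -3.17 without lesion 8 and -0.52 without lesion 4), with 0 to 37.2 CPM in lesions and 0 to 47.1 in controls. Lgals3 made up 60.7% to 95.1% of the galectin sum, which includes Lgals3bp, in every lesion. Among the controls Lgals3 led in control 5. The lowest share was that of lesion 7, where Lgals3bp held 65.6 of the 187 CPM. In lesion 8 the lead of Lgals3 held in gene reads only, since in exon reads Lgals3 and Lgals2 had 0.791 CPM each. Lgals2 had 39 exon reads, of which 0 were unique, so that its values are uncertain, and the gene overlaps Cdc42ep1.

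Levels of different genes were compared per kilobase of exon, in mean exon CPM. In the lesions Lgals3 was highest with 278, followed by S100a6 with 239, S100a4 with 184 and S100a10 with 100.5. In the controls S100g led with 644, ahead of S100a6 with 51.0, S100b with 45.0 and Lgals4 with 39.4, while Lgals3 had 9.17 and S100a4 2.28. The order is a description, since in gene-read CPM the SD over the lesions exceeded the mean for each of the 4 leading lesion genes.

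**Figure D5:**
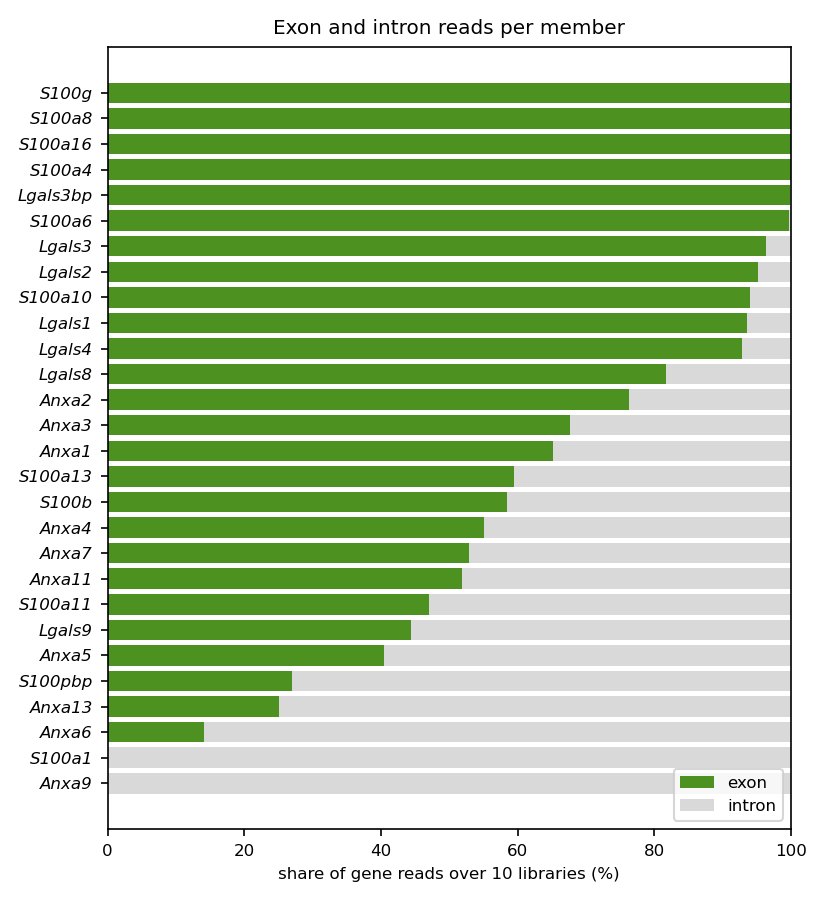
Bars give the percent of gene reads over the 10 libraries that lay in exons (dark) or introns (light) for each gene with at least 30 reads. S100a4 and S100g lie at 100%, Lgals3 at 96.4%, Anxa5 at 40.4%, Anxa6 at 14.1%, and Anxa9 and S100a1 at 0%.

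The share of reads in exons separated the genes, which bears on how far gene reads stand for mature mRNA. S100a4, S100a6 and Lgals3 had 100%, 99.8% and 96.4% of their reads in exons, while Anxa5 had 40.4%, S100pbp 27.0% and Anxa6 14.1%. Over all genes the share was 50.2% to 67.2% in a library. S100a1, known from muscle, had 166 reads in lesion 7 only, and 0 of these lay in exons. Reads across exon junctions were counted for Lgals3 (2036), Anxa4 (513), S100g (461), S100a4 (451) and S100a6 (411). In 25 of 26 genes with exon reads all of these were unique, Lgals2 being the exception. S100g overlaps Ctps2, which had 1772 reads, and Lgals8 overlaps Heatr1, and the sources used here do not say whether strand was used in counting.

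Receptors and partners of the families were taken from a list of 28 genes, of which 27 were in the table and 17 were tested. None passed in edgeR's quasi-likelihood test (0 higher and 0 lower) or in DESeq2 (0), 16 had a positive log2 fold change and 1 a negative one, beside 54.2% positive over all genes, and the median was 1.21, beside 0.13. At an unadjusted p under 0.05 there were 2 on the higher side, against 3.3% of all tested genes. These were Ahnak, a large scaffold that binds the Anxa2 and S100a10 complex (log2 fold change 2.48, standard error 1.13, adjusted p = 0.799, and 1.09 without lesion 5, which held 3779 of its 5017 reads), and Lamp2, a lysosomal glycoprotein that carries sugars bound by galectin-3 (2.14, standard error 0.99, adjusted p = 0.829, and 1.05 without lesion 6). Lamp1, Itgb1 and Itgav, also glycoprotein ligands of galectins, had 1.49, 1.66 and 1.53 (adjusted p = 0.896, 0.911 and 0.961 by edgeR). Plat, tissue plasminogen activator, was the gene with a negative value, -1.97 (standard error 1.70, adjusted p = 0.999 by edgeR). The groups overlapped for Plat, with 0 to 29.8 CPM in lesions and 0.882 to 78.0 in controls. The formyl peptide receptors Fpr1, Fpr2 and Fpr3, through which annexin A1 acts, had 0 reads in all libraries, and Ager, the receptor for several S100 proteins, had 27 reads, all in controls 4 and 5.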

How the data were processed

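Poly(A)-selected libraries from 5 lesions and 5 controls were sequenced in pairs of reads, and the authors mapped them with CLC genomics workbench to build Rnor6. The sources used here give no strand setting, duplicate handling or annotation release. The deposited counts are whole reads per gene, not normalized: total gene reads (exon plus intron), exon reads, unique exon reads and exon junction reads. The table's other columns, including the authors' own comparison, fold changes and p-values, were not used. The deposited exon length per gene (an other column) served to express levels per kilobase.

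The members and lists were chosen with earlier results of these data known, and the intestinal list after its values were seen. Genes were filtered with filterByExpr (minimum 10 reads), which left 7615, scaled by TMM and tested in R (4.3.3) with edgeR's quasi-likelihood test (4.0.16), with p-values adjusted after Benjamini and Hochberg over all tested genes and a threshold of 0.05; DESeq2 (1.42.0) was an alternative. Exact permutation tests ran over every split into 5 and 5 samples (Python with numpy 2.4.6). No pair of libraries within a group agreed within the noise of sampling (the lowest chi-square per degree of freedom was 55.8). Named genes were the 20 with the highest mean CPM, up to 5 per family with the lowest p, those left out by the filter with at least 30 reads, and S100a8, S100a9 and S100b. Alternatives numbered 16, and 2 (exon reads without the filter, and leaving out controls 6 and 7) were added after seeing the data. Sequences and names of promoters come from RefSeq (GRCr8); gene coordinates come from the deposited table. Same-numbered samples correlated by -0.024 to 0.136 in their deviations, and 1 of 5 correlations exceeded 0.1, so that numbers were not treated as pairs.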

Additional observations from a re-analysis of the deposited data

Results flagged for a closer look

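Of 58 groups of 5 libraries checked for a library far from the others, 11 met the criterion. A group with reads in a single library meets it by construction, as for Lgals8, S100a11 and S100a1, and a group without reads cannot meet it. The number is therefore a description and is not compared with a rate expected by chance. In the lesions, S100a1 stood at 33.5 CPM in lesion 7, S100a16 at 10.9 CPM in lesion 7, Lgals4 at 1.41 CPM in lesion 7, Lgals8 at 6.37 CPM and S100a11 at 7.84 CPM in lesion 5, each far above the other lesions, while S100b stood far below the others at 0.791 CPM in lesion 8. In the controls, Lgals8 stood at 27.8 CPM, S100a11 at 11.8 CPM and S100a4 at 6.78 CPM in control 4, Lgals2 at 5.78 CPM in control 6, and Anxa9 at 4.76 CPM in control 7, each far above the other controls. Lgals8 and S100a11 were each read in lesion 5 and in control 4 and in no other library, and the reason for this was not tested. In control 4 none of the 68 S100a11 reads lay in exons.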

How the results depend on the processing

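The number of genes of the families called higher was 0 in edgeR on filtered gene reads. It was 3 with DESeq2, 3 without the low-count filter, 1 with the sample number as a replicate block (Lgals3, adjusted p = 0.0255), and 0 to 2 when each library was left out in turn, 2 without lesion 8 and 1 without control 4. The number called lower was 0, 2 without the low-count filter and 1 with exon reads and no filter (S100g), and 0 in every leave-one-out fit. Over all genes, DESeq2 called 1.21% of those with an adjusted p higher. In either direction edgeR called 0.778% without the filter, 0.374% without lesion 8 and 0.0966% without control 4. The block fit called 10 of 7615 genes higher and 7 lower. The fit on exon reads without the filter called 18 of 12722 genes higher and 12 lower. The median log2 fold change of the tested genes of the families was 0.62 to 1.83 over all alternatives. Of the single-gene results over the alternatives, 399 kept direction and side of the threshold, 10 passed it and 18 turned sign. Anxa6 turned to -0.062 with library-size scaling and to -0.78 and -0.71 with exon reads with and without the filter, and was -0.073 to 0.41 over the fits that leave out a library. S100a13 turned to -1.15 and -1.005 with exon reads with and without the filter, and S100pbp to 0.80 and 0.91. Anxa11 turned to -3.65 with the block, and Itgav to -4.17 with unfiltered exon reads. Leaving out a library gave -1.98 to 0.84 for Anxa11 (lowest without lesion 4), -0.40 to 1.49 for Anxa3 (without lesion 6), -0.69 to 0.14 for S100b (highest without control 4) and -0.82 to 0.041 for S100pbp (highest without control 8). The cause was not tested for these. The methods do not tie the sample numbers to animals, and 2 of 5 lesions correlated best with the control of their own number. Of the 39 genes 20 failed the filter, among them S100g and Lgals4 with 4798 and 945 reads that lay mostly in 2 libraries, and 13 had no exon read.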
